A study of Mus musculus with 6 samples.

Results

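The genes described here are the nuclear receptors that lie outside the circadian clock. They comprise 41 genes, listed by symbol, of the 27179 genes counted in each library: the receptors for retinoids, thyroid hormone, vitamin D, oxysterols, fatty acids and steroids together with their orphan relatives, without the clock receptors Nr1d1 and Nr1d2. A member was taken as expressed when its counts summed over the 6 libraries reached 60, and as silent below that sum. By this rule 22 members were expressed and 19 were silent.

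The mRNA was measured in 3 mouse embryonic fibroblast lines, with 2 libraries for each line from independent RNA preparations. CPN-/- cells carry knockouts of Cry1, Cry2, Per1, Per2, Nr1d1 and Nr1d2, and these knockouts are shared by all 3 lines. CPN-/- CRY1 and CPN-/- CRY2 were derived from CPN-/- by infection with a virus carrying mouse Cry1 or Cry2 under a viral promoter, and each was selected with blasticidin as a single colony, so that each CRY line stands for 1 clone. RNA was collected from growing, unsynchronized cultures in medium with fetal bovine serum, which itself holds retinoids and hormones in amounts that were not measured. No age was given for the cells.

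Nuclear receptors are transcription factors with a zinc finger DNA-binding domain and, in most members, a pocket for a lipophilic ligand. Many of the NR1 receptors bind DNA as a pair with a retinoid X receptor, recruit corepressors such as NCOR1 without ligand and exchange them for coactivators when ligand is bound. In fibroblasts the retinoic acid receptors are known for their part in matrix and growth control, and CRY proteins are known from other work to bind several nuclear receptors. These statements are background and were not measured here.

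The libraries held between 25957409 and 36106949 counts. The fibroblast identity of the lines was checked with 11 marker genes, of which 9 reached 60 counts. Their summed level was 11160 and 14110 counts per 1000000 counts of the library (CPM) in the CPN-/- libraries, 13590 and 13880 in CPN-/- CRY1 and, in CPN-/- CRY2, 17400 and 17840. The markers of epithelium, adipocytes, neural cells and hepatocytes each summed to less than 1 CPM in every library, and those of blood cells and skeletal muscle to at most 2.14 CPM. The 2 markers under 60 counts were Thy1 and Lum. Cry1 was 125 and 115 CPM in CPN-/-, 165 and 189.6 CPM in CPN-/- CRY1 and 51.0 and 48.3 CPM in CPN-/- CRY2, and Cry2 was 136 and 129, 50.7 and 51.7, and 349 and 351 CPM in the same order. The knocked-out clock receptors Nr1d1 and Nr1d2 still gave between 81.7 and 118 CPM in every library, so that mRNA of these genes was counted despite the knockouts. The 2 CPN-/- libraries differed from each other more than those of the CRY lines did, with an SD over genes of the log2 difference of 0.435 against 0.232 and 0.245. The difference tracked the length of the transcripts (Spearman's rho 0.66 over the genes, which do not count as independent points), and library 2 was the lower one for long transcripts.

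Upstream sequence is shown first, because the E-box CACGTG is the element through which CLOCK-BMAL1 and CRY are known to act, and because AGGTCA is the core element that many nuclear receptors read. RefSeq promoter windows of 300 bases, from 250 before to 50 after a transcription start on the GRCm38.p6 build (mm10), were found for 21 of the 22 expressed members and were searched on both strands. Thra had no entry. An E-box was present in a window of 4 of the 21 members (19%), against 8.09% of the 27025 genes in the same table. An AGGTCA element was present for 5 of 21 members (23.8%), against 18.1% of all genes. The D-box TTATGTAA was found for 0 of 21, against 1.11% of all genes. These shares by gene are not like for like, because genes differ in their number of windows and the whole set includes genes that were not expressed. By window, the E-box was in 5 of the 31 windows of the members, against 7.15% of all 32851 windows. The AGGTCA element was in 5 of the 31, against 16.3% of all. A match describes letters in a window and is no evidence of binding.

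The 4 members with an E-box were Esr2, Thrb, Rara and Nr1i3, and the 250 bases before the start are printed for each, with the E-box in capitals. They were chosen after the values were seen, because no member was called in the same direction in both CRY lines. The Esr2 stretch lies on the minus strand at chr12:76177260-76177509 and its E-box begins at position −72 from the start. The Thrb stretch, on the plus strand at chr14:17981394-17981643, belongs to the downstream of 2 starts and has the E-box at −193. For Rara the stretch on the plus strand at chr11:98937468-98937717 has the E-box at −10, and the window of a neighbouring start holds the same site. In the Nr1i3 stretch on the plus strand at chr1:171213720-171213969 the E-box begins at −244.
Esr2: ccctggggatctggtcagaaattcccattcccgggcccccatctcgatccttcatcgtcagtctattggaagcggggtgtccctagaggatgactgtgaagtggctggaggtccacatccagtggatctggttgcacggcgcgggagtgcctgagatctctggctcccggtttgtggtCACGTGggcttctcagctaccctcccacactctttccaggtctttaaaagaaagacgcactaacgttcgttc
Thrb: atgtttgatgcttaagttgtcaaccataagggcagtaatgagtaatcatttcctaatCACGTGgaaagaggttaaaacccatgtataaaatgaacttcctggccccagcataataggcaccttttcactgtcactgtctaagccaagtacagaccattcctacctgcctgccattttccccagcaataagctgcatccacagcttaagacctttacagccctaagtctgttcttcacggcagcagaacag
Rara: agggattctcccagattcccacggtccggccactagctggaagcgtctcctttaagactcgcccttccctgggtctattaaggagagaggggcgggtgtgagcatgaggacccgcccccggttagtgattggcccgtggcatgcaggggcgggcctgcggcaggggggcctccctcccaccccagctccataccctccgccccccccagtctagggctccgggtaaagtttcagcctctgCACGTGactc
Nr1i3: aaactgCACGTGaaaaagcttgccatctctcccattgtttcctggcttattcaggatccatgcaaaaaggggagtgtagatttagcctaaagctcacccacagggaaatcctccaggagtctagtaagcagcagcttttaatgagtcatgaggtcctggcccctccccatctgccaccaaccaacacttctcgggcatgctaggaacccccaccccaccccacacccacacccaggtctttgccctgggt

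The stretch before Vdr, on the minus strand at chr15:97908297-97908546, and that before Esrra, on the minus strand at chr19:6921809-6922058, are printed because these members were called in the comparisons that follow. They hold neither an E-box nor an AGGTCA element, and all letters are therefore in lower case.
Vdr: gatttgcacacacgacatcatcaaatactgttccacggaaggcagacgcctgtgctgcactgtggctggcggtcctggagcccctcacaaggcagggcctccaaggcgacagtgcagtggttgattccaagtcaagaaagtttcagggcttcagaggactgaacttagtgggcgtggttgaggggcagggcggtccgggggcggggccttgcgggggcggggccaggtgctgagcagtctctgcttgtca
Esrra: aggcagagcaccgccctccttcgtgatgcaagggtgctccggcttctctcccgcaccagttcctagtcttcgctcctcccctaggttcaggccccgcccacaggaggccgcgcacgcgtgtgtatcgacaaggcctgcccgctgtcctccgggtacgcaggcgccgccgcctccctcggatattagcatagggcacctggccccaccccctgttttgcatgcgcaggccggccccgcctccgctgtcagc

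Which nuclear receptors do these fibroblasts express? Of all 27179 genes, 50.6% reached 60 counts, and of the members 53.7% did. By subfamily, 10 of 14 NR1 genes, 7 of 12 NR2 genes, 2 of 7 NR3 genes, 2 of 3 NR4 genes, 0 of 2 NR5 genes, the only NR6 gene and 0 of 2 NR0 genes were expressed. The 8 members with 0 counts in all 6 libraries were Rxrg, Nr1i2, Hnf4a, Hnf4g, Nr2e3, Pgr, Nr0b1 and Nr0b2. A count of 0 over all libraries allows a level of up to 0.0168 CPM, from counting error alone. The silent list thus held the hepatocyte factors Hnf4a and Hnf4g, the xenobiotic receptor Nr1i2 (PXR), the photoreceptor gene Nr2e3, the steroidogenic factors Nr5a1 and Nr5a2 with 3 and 1 counts, and Pparg, the adipocyte receptor, with 2 counts. The remaining silent members were Esrrg and Nr2e1 with 1 count each, Esrrb with 4, Nr3c2 (the mineralocorticoid receptor) with 7, Nr4a3 with 11, Esr1 with 23, Ppara with 27 and Nr1h4 with 48. Just above the sum were Thrb with 67, Rarb with 74, Esr2 with 82 and Nr1h3 with 136.

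Per kilobase of annotated exon, which allows genes to be compared, the retinoic acid receptor Rarg was highest with a mean of 32.8 CPM per kb over the 6 libraries. Nr2f6, an orphan of the COUP-TF family, followed with 29.6 CPM per kb, and the ranges of these genes overlapped. Then came the thyroid hormone receptor Thra (16.4), Rxra (14.6), the liver X receptor Nr1h2 (12.3), Rxrb (12.2), Rara (10.1) and Nr2f2 (9.57), each overlapping the next in its range over libraries. A lower group from Nr2c1 (6.57) over Esrra (6.56), Ppard (5.26), Nr2c2 (4.83) and Vdr (4.49) to Nr4a1 (2.71) also overlapped stepwise. Of the 21 pairs of neighbours in this order, 16 had overlapping ranges. The ranges were separate between Nr2f6 and Thra, Nr2f2 and Nr2c1, Nr4a1 and Nr2f1, Nr4a2 and Nr6a1, and Nr6a1 and Nr1i3. Nr2f1 (1.62), Nr4a2 (1.24) and Nr6a1 (0.722) formed the tail of the well counted members, and Nr1i3 (0.355), Nr1h3 (0.301), Esr2 (0.130), Rarb (0.0773) and Thrb (0.0525 CPM per kb) lay below it. In bulk RNA a lower level can stem from fewer cells with the mRNA or from less mRNA per cell, which cannot be told apart. These per-kilobase levels use the union of annotated exons, and the annotation used for counting was not given in the sources used here.

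**Figure D1:**
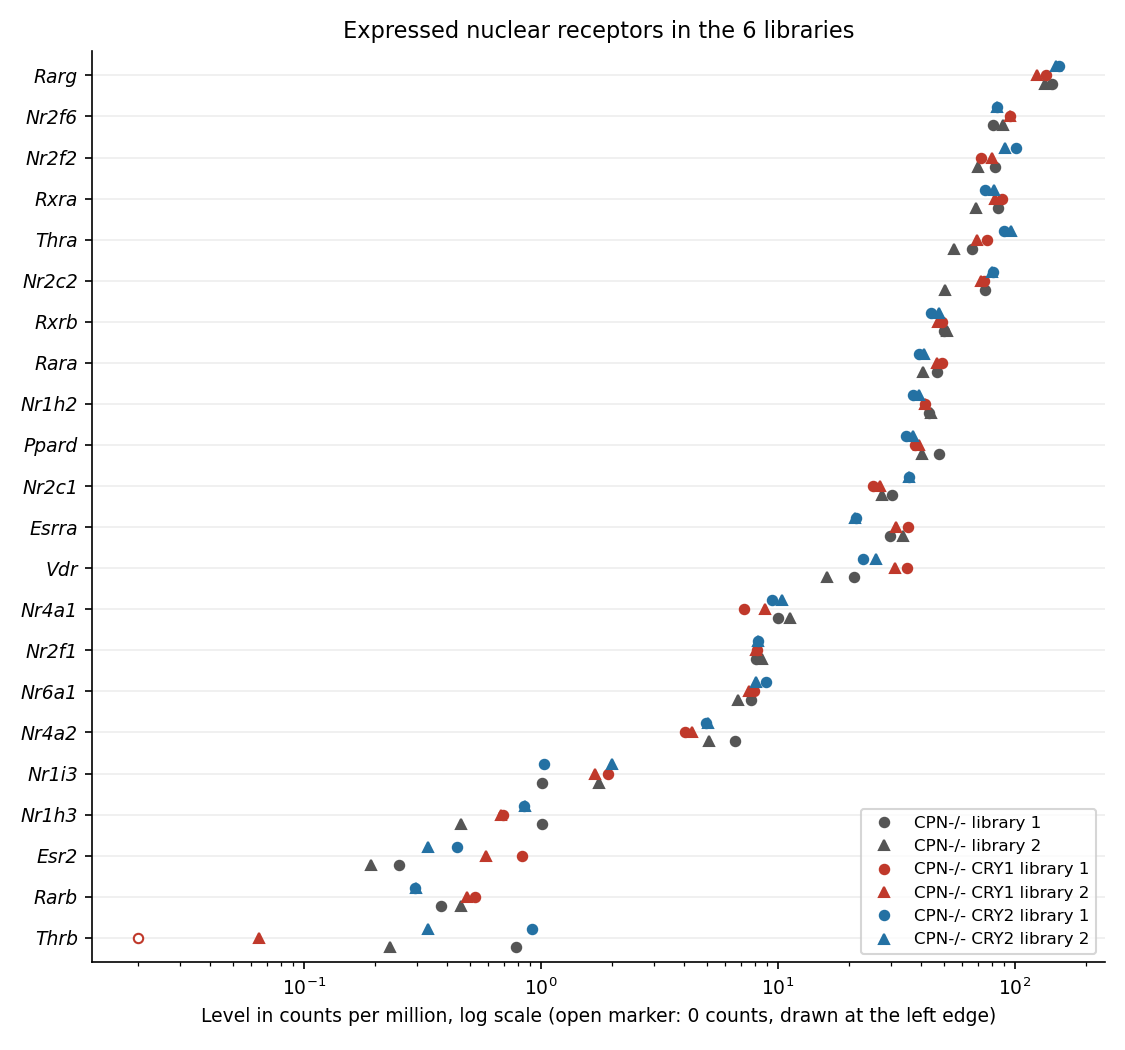
Level of each of the 22 expressed nuclear receptors in CPM on a log axis, with 1 point for each library and colours for the 3 lines. Members range from 0 counts for Thrb in a CPN-/- CRY1 library to 153 CPM for Rarg in a CPN-/- CRY2 library, and the open marker at the left edge stands for that count of 0.

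Within families a single isotype usually held most of the level per kilobase. Thra made up at least 99.3% of the thyroid hormone receptors in every library, Ppard at least 98.8% of the PPARs, Nr1h2 at least 97% of the liver X receptors and Esrra at least 99.8% of the estrogen-related receptors. Among the retinoic acid receptors Rarg held between 72.9% and 79.8% and Rara between 20% and 26.9%, while Rarb stayed at or under 0.231%. The retinoid X receptors, the common partners, were split more evenly, with Rxra between 49.1% and 56.6% and Rxrb making up the remainder. Nr2f6 held between 67.8% and 76.3% of the COUP-TF family. The testicular receptors Nr2c1 and Nr2c2, which are known to act as a pair, were also close, with Nr2c1 between 52.4% and 63.7%. The lowest Rxra share and the highest Nr2c1 share were both from CPN-/- library 2, in which long transcripts such as Nr2c2 were low, and the part of that library in these shares was not tested.

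**Figure D2:**
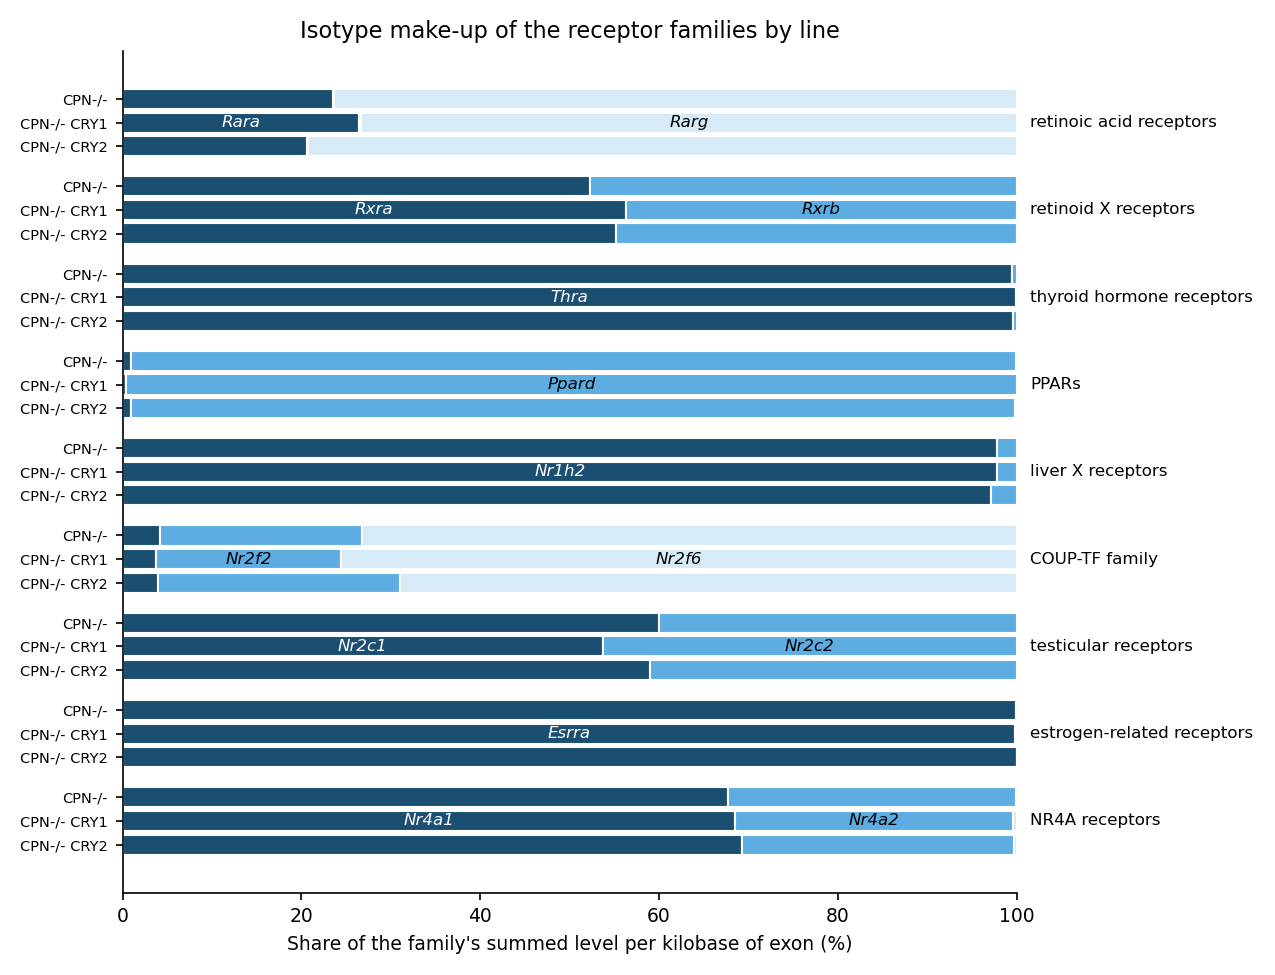
Share of each isotype in its family's summed CPM per kb, as the mean of the 2 libraries of each line, with isotypes in the order of their numbers from left to right. One isotype fills nearly the whole bar for the thyroid hormone receptors, PPARs, liver X receptors and estrogen-related receptors in all 3 lines, and the bars of a family resemble each other across lines.

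How did the members respond to CRY1 and to CRY2? The tests covered 14069 genes, among them 23 members, namely the 22 expressed and Nr1h4, which passed the filter on low counts. Changes are log2 fold changes with their standard error (SE), and a gene was called when edgeR's quasi-likelihood test, adjusted over all tested genes, gave p under 0.05. In CPN-/- CRY1 against CPN-/-, 3 of 23 members were called (13%), 2 higher and 1 lower, where 24.3% of all tested genes were called, 11.2% higher and 13.1% lower. Of these 3, Esr2 and Nr1h4 passed the filter only with the libraries of the line in which each was highest. In CPN-/- CRY2 against CPN-/-, 2 of 23 were called (8.7%), 1 higher and 1 lower, where 6.66% of all genes were, 2.58% higher and 4.08% lower. Between the CRY lines 2 of 23 were called, 1 in each direction, where 16.3% of all genes were, 7.72% higher and 8.57% lower in CPN-/- CRY1. Both comparisons with CPN-/- share its 2 libraries. These counts turn on single libraries: without either CPN-/- library, 8 or 9 members were called in CPN-/- CRY1, 9 or 6 in CPN-/- CRY2 and 11 between the CRY lines, and 3185 to 8980 of all genes were called. Without any one library of the CRY lines, at most 1 member was called in any comparison, and 199 to 1805 of all genes were called.

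Most members moved by small amounts against CPN-/-. Their median absolute log2 change was 0.17 in CPN-/- CRY1, where that of all tested genes was 0.30, and 0.23 against 0.22 in CPN-/- CRY2. Between the CRY lines it was 0.26, where that of all genes was 0.22. In CPN-/- CRY1 a change over 1 in size was seen for 3 of 23 members, Thrb, Nr1h4 and Esr2, all with few counts, and for 9.29% of all genes. The libraries of the lines did not overlap for 13 of 23 members in the first comparison and 15 of 23 in the second, where 66.9% and 55.1% of all genes did not overlap. Between the CRY lines 21 of 23 members did not overlap, 9 higher and 12 lower in CPN-/- CRY1, where 73.3% of all genes did not. Among the 17 members with at least 100 counts in every library, 16 changed by less than 0.5 on the log2 scale in CPN-/- CRY1, and 15 did in CPN-/- CRY2. Of the 10858 tested genes with such counts, 78.6% and 89.9% did.

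**Figure D3:**
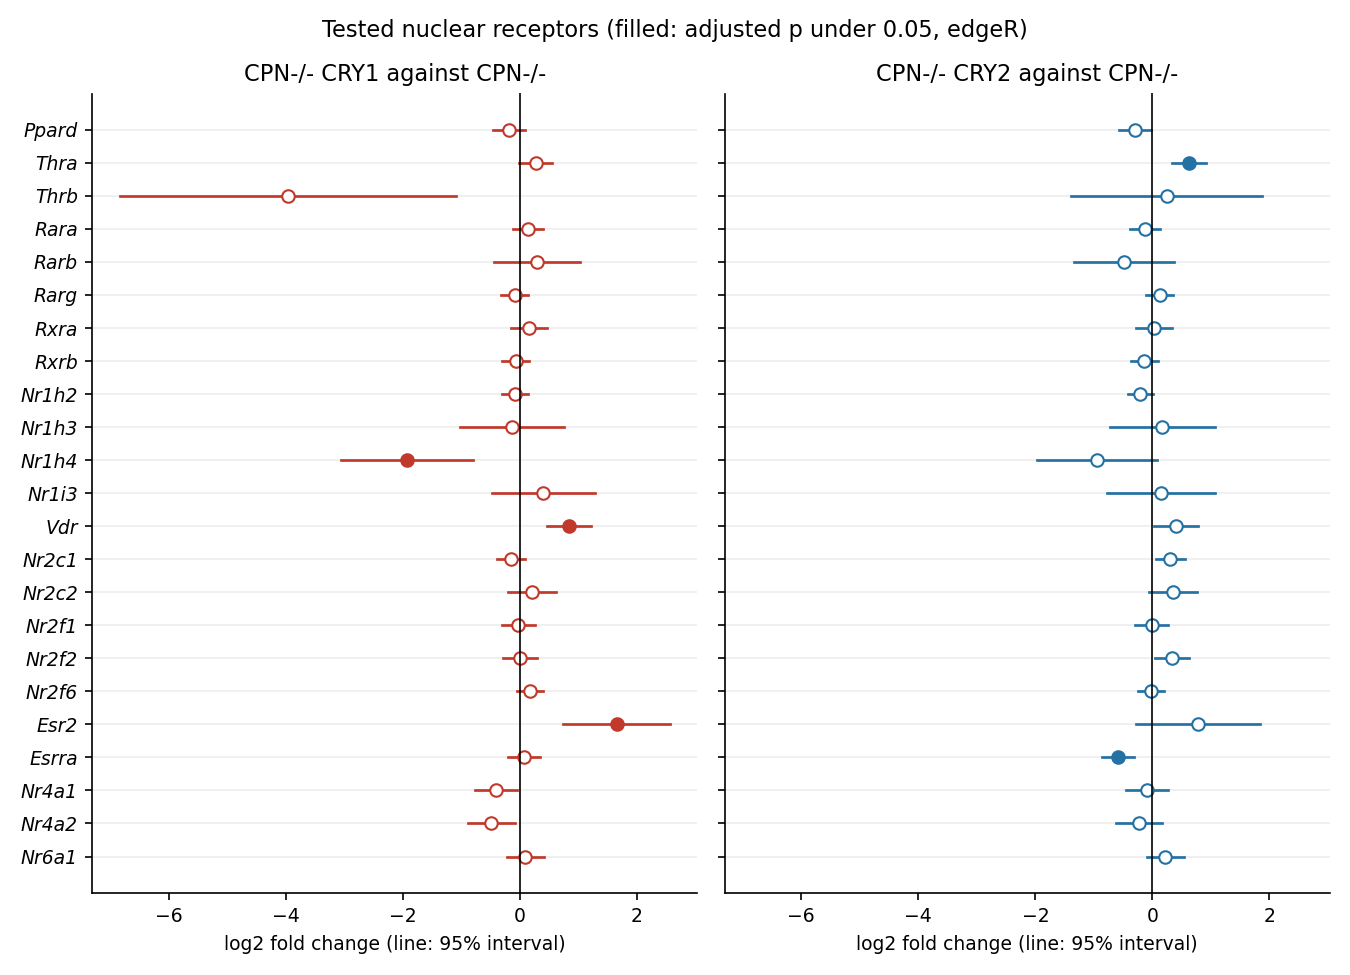
Log2 fold change of the 23 tested members in CPN-/- CRY1 (left) and CPN-/- CRY2 (right) against CPN-/-, with 95% intervals and filled points at an adjusted p under 0.05. Esr2, Vdr and Nr1h4 are filled on the left, Thra and Esrra on the right, and Thrb has the widest interval.

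Vdr, the receptor for the hormonal form of vitamin D, rose in CPN-/- CRY1. It was 21.0 and 16.04 CPM in CPN-/-, 35.2 and 31.0 CPM in CPN-/- CRY1 and 23.0 and 26.1 CPM in CPN-/- CRY2. Both CPN-/- CRY1 libraries lay above all the others, and the CPN-/- libraries were the lowest. The change was 0.84 (SE 0.16, adjusted p = 0.0115), a 1.79-fold rise. In CPN-/- CRY2 it was 0.40 (adjusted p = 0.182), and the difference between the CRY lines was 0.43 (adjusted p = 0.107). Vdr lies on chromosome 15, whose tested genes had a median change of −0.36 in CPN-/- CRY1, so that Vdr rose where its neighbours were lower on balance. With chromosome medians removed, its change was 1.21 (adjusted p = 0.00398), and the difference between the CRY lines was then called at 0.88 (adjusted p = 0.0165). The rise lost its call without either CPN-/- CRY1 library (adjusted p = 0.106 and 0.0691), and a fit to the 4 CRY libraries alone called the difference between the CRY lines (0.44, adjusted p = 2.11e-05).

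Thra, which encodes the main thyroid hormone receptor of these cells and a splice form that does not bind hormone, rose in CPN-/- CRY2. Its level was 65.8 and 55.2 CPM in CPN-/-, 76.6 and 69.2 CPM in CPN-/- CRY1 and 89.7 and 96.5 CPM in CPN-/- CRY2. The 3 lines did not overlap, and CPN-/- was lowest. The change was 0.62 (SE 0.12, adjusted p = 0.0299) in CPN-/- CRY2 and 0.27 (SE 0.12, adjusted p = 0.142) in CPN-/- CRY1, while the difference between the CRY lines, −0.35, was not called (adjusted p = 0.0956) except in a fit to their 4 libraries (adjusted p = 1.29e-05) or without a CPN-/- library (adjusted p = 5.55e-06 and 5.74e-06). The call was lost without any one library of the CRY lines, with adjusted p from 0.0949 to 0.245, and in a fit to the 4 libraries alone (adjusted p = 0.0982). The exons of Thra overlap those of Nr1d1 on the opposite strand over 263 bases, 5.7% of its exon length, and Nr1d1 itself changed by 0.07 (adjusted p = 0.668) in CPN-/- CRY2.

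The second thyroid hormone receptor gene, Thrb, was nearly undetected in CPN-/- CRY1. It had 25 and 6 counts in CPN-/-, 0 and 2 in CPN-/- CRY1 and, in CPN-/- CRY2, 25 and 9. The CPN-/- CRY1 libraries lay below all the others, although the libraries of the other lines also differed among themselves by several times. Scaled to total counts, the ratio of CPN-/- CRY1 to CPN-/- was 0.0551, with a 95% interval of 0.00639 to 0.216 for counting error alone. The fitted change, −3.97 (SE 1.21), depends on the small count that the fit adds and missed the threshold (adjusted p = 0.0541). Against CPN-/- CRY2 the ratio was 0.0477 (0.00555 to 0.186, adjusted p of the fitted difference 0.0545). Thrb passed the filter of the test only with libraries of CPN-/- and CPN-/- CRY2, the lines in which it was higher. In the filtered fits its fall thus draws on the values that let it in. The fall from CPN-/- was called in the fit with DESeq2 (adjusted p = 0.0113), with the replicate block (adjusted p = 0.0171), with the length trend removed (adjusted p = 0.0197) and without a filter (adjusted p = 0.0334). It was not called with chromosome medians removed (−4.04, adjusted p = 0.0538). With single libraries left out, the fitted change ran from −6.98 to −2.78, and it was −4.53 without CPN-/- library 2. One of its 2 promoter windows holds the E-box printed above and the other an AGGTCA element.

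The estrogen receptor gene Esr2 was low in all lines and highest in CPN-/- CRY1, with 8 and 5 counts in CPN-/-, 30 and 18 in CPN-/- CRY1 and, in CPN-/- CRY2, 12 and 9. In CPM these are 0.252 and 0.192, 0.830 and 0.584, and 0.441 and 0.334. The 3 lines did not overlap, in the order CPN-/-, CPN-/- CRY2 and CPN-/- CRY1. Esr2 reached the sum for expression, and passed the filter of the test, only with the CPN-/- CRY1 libraries, in which it was highest. Its rise thus draws on the values that let it in. The change in CPN-/- CRY1 was 1.65 (SE 0.38, adjusted p = 0.0233), and that in CPN-/- CRY2 was 0.78 (SE 0.45, adjusted p = 0.319). It was not called by DESeq2 (adjusted p = 0.0625) or without any one library of the CRY lines (adjusted p from 0.0552 to 0.169). Esr1, the other estrogen receptor gene, was silent and lowest in the same line, with 9 and 6 counts in CPN-/-, 0 and 2 in CPN-/- CRY1 and, in CPN-/- CRY2, 3 and 3.

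Nr1h4, which encodes the bile acid receptor FXR, stayed under the sum for expression with 14 and 13 counts in CPN-/-, 3 and 5 in CPN-/- CRY1 and, in CPN-/- CRY2, 8 and 5. Both CRY lines lay below CPN-/-. The change was −1.93 (SE 0.48, adjusted p = 0.028) in CPN-/- CRY1 and −0.95 (SE 0.43, adjusted p = 0.231) in CPN-/- CRY2. The call was lost with DESeq2 (adjusted p = 0.0882), in a fit to the 4 libraries alone (adjusted p = 0.0538) and without any one library of the CRY lines (adjusted p from 0.0633 to 0.197).

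Esrra, an orphan receptor that is known to drive mitochondrial genes, fell in CPN-/- CRY2. It was 29.8 and 33.9 CPM in CPN-/-, 35.2 and 31.4 CPM in CPN-/- CRY1 and 21.3 and 21.1 CPM in CPN-/- CRY2, so that CPN-/- CRY2 stood apart below the overlapping other lines. The change was −0.59 (SE 0.12, adjusted p = 0.0305) in CPN-/- CRY2 and 0.07 (SE 0.11, adjusted p = 0.676) in CPN-/- CRY1, with a called difference between the CRY lines of 0.65 (SE 0.12, adjusted p = 0.0115). Chromosome 19, which carries Esrra, had a median of −0.17 in CPN-/- CRY2, of 0.31 in CPN-/- CRY1 and of 0.46 between the CRY lines. With chromosome medians removed, the fall was −0.44 (adjusted p = 0.0643) and the difference between the CRY lines 0.19 (adjusted p = 0.324), and both calls were lost. Without any one library of the CRY lines the calls were also lost, with adjusted p from 0.0947 to 0.27 for the fall and from 0.073 to 0.132 for the difference, and the fall was not called in a fit to the 4 libraries alone (adjusted p = 0.0921). Trmt112, whose exons overlap 73 bases of Esrra on the opposite strand, changed by −0.31 (adjusted p = 0.206) in CPN-/- CRY2.

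Nr2c1 (TR2), an orphan that is known to repress as a pair with Nr2c2 (TR4), differed between the CRY lines. Its level was 30.4 and 27.5 CPM in CPN-/-, 25.1 and 27.0 CPM in CPN-/- CRY1 and 35.9 and 35.7 CPM in CPN-/- CRY2. The 3 lines did not overlap, with CPN-/- between the CRY lines. Between the CRY lines the difference was −0.46 (SE 0.10, adjusted p = 0.0273), lower in CPN-/- CRY1, and neither change from CPN-/- was called (−0.15 with adjusted p = 0.305 and 0.31 with adjusted p = 0.142). The median of chromosome 10 between the CRY lines was −0.16, and with chromosome medians removed the difference was −0.31 (adjusted p = 0.118). The call was also lost without any one library of the CRY lines, with adjusted p from 0.168 to 0.248. Nr2c2 was 74.7 and 50.9 CPM in CPN-/-, 73.9 and 71.9 CPM in CPN-/- CRY1 and 80.8 and 80.4 CPM in CPN-/- CRY2, so that the low value of CPN-/- library 2 set the spread, and its changes of 0.21 and 0.36 were not called (adjusted p = 0.382 and 0.25). Without CPN-/- library 1 the changes of Nr2c2 became 0.52 (adjusted p = 1.09e-07) and 0.66 (adjusted p = 9.76e-10), and without CPN-/- library 2 they were −0.03 (adjusted p = 0.765) and 0.12 (adjusted p = 0.242). With the length trend removed they were −0.08 (adjusted p = 0.341) and 0.08 (adjusted p = 0.433). The exons of Nr2c2 overlap Mrps25 on the opposite strand over 4590 bases, 30.7% of their length, and share 2070 bases at 95% identity or more with 1 other annotated gene, so that its level is uncertain.

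**Figure D4:**
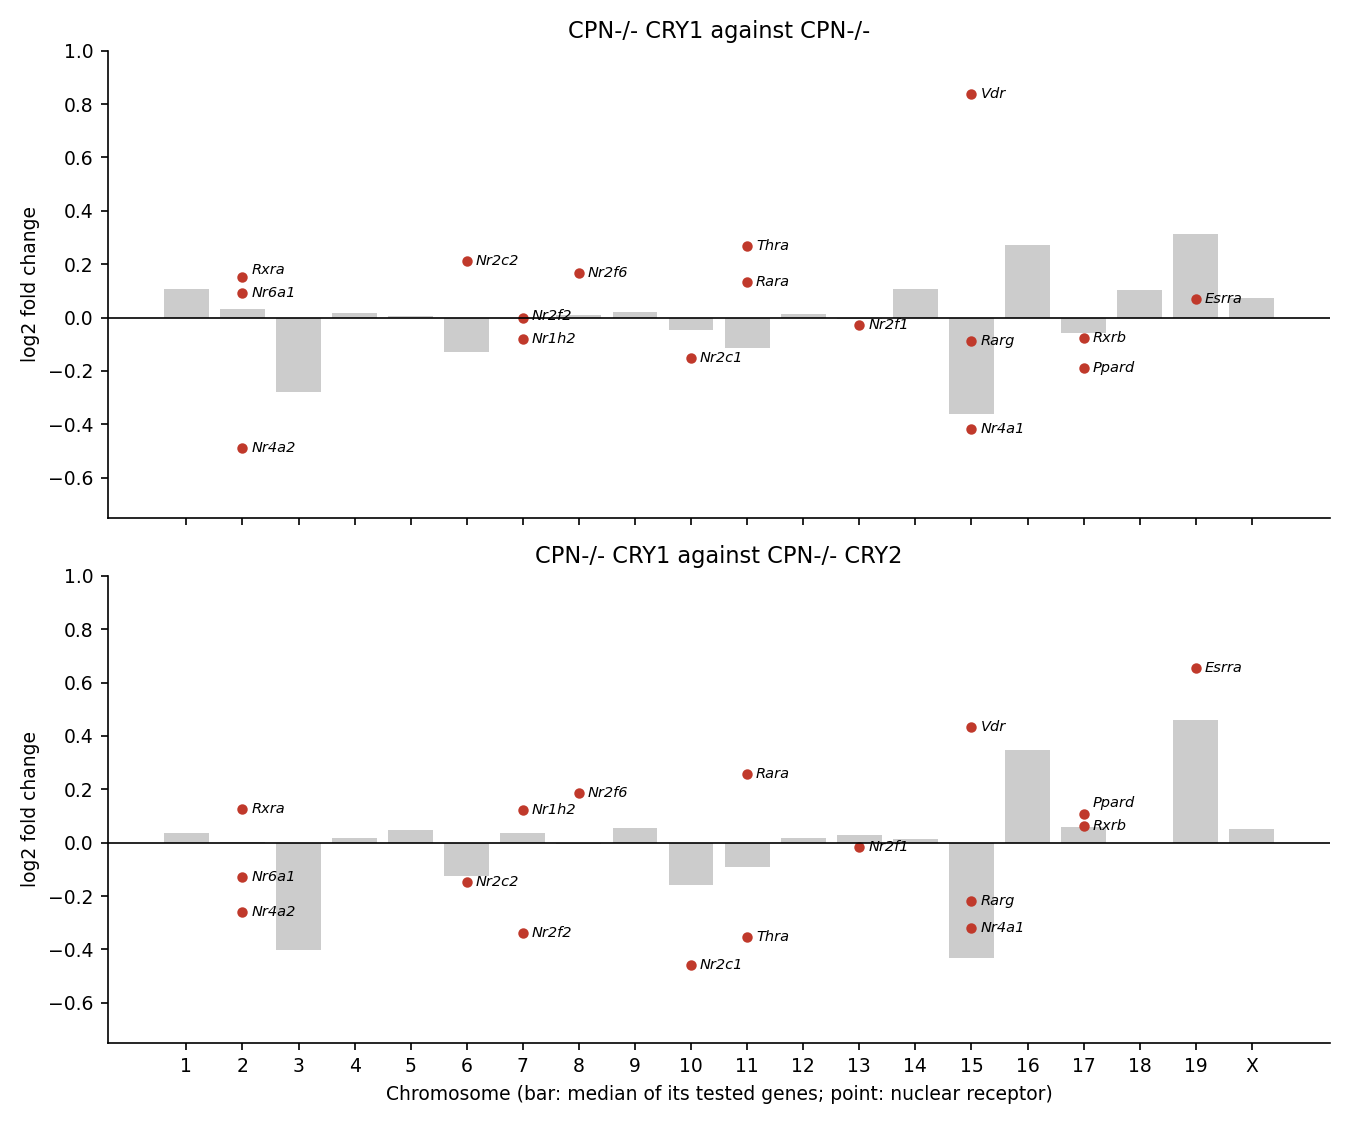
Median log2 fold change of the tested genes of each chromosome (bars) and the change of the 17 members with at least 100 counts in every library (points), for CPN-/- CRY1 against CPN-/- and against CPN-/- CRY2. Vdr stands at 0.84 on chromosome 15, where the median is −0.36, and Esrra at 0.65 in the lower panel on chromosome 19, where it is 0.46.

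The retinoic acid receptors, which are activated by all-trans retinoic acid, were not called in any comparison, although Rara and Rarg were called between the CRY lines without either CPN-/- library. Rarg was 143 and 134 CPM in CPN-/-, 136 and 124 CPM in CPN-/- CRY1 and 153 and 149.5 CPM in CPN-/- CRY2. Its change was −0.09 (95% interval −0.32 to 0.14) in CPN-/- CRY1 and 0.13 (−0.10 to 0.36) in CPN-/- CRY2, so that a change as large as that of Vdr lies outside both intervals. Rara was 46.9 and 40.8, 49.3 and 46.9, and 39.4 and 41.1 CPM in the 3 lines, with changes of 0.13 (−0.12 to 0.39) and −0.12 (−0.38 to 0.13). Rarb, itself a classical target of retinoic acid receptors, had 12 and 12 counts in CPN-/-, 19 and 15 in CPN-/- CRY1 and, in CPN-/- CRY2, 8 and 8. Its levels did not overlap between the CRY lines, yet the difference of 0.77 was not called (adjusted p = 0.196), and 34.1% of its exon length overlaps Top2b on the opposite strand, a gene with at least 3240 counts in every library.

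The retinoid X receptors, the shared partners of these receptors, were not called either. Rxra was 84.9 and 68.4 CPM in CPN-/-, 88.5 and 82.1 in CPN-/- CRY1 and, in CPN-/- CRY2, 74.6 and 81.5, and the lines overlapped in both comparisons with CPN-/-. Its changes were 0.15 (95% interval −0.15 to 0.46) and 0.03 (−0.28 to 0.33), and without CPN-/- library 1 they were called at 0.32 (adjusted p = 0.000291) and 0.19 (adjusted p = 0.0287). Rxrb was between 44.4 and 51.5 CPM in the 6 libraries, with changes of −0.08 (−0.30 to 0.15) and −0.14 (−0.36 to 0.09).

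Among the lipid sensors, Ppard, the ubiquitous fatty acid receptor, was 47.7 and 40.5 CPM in CPN-/-, 38.0 and 39.4 CPM in CPN-/- CRY1 and 34.7 and 37.1 CPM in CPN-/- CRY2. The CPN-/- libraries were the highest, but neither change was called (−0.19 with adjusted p = 0.246 and −0.30 with adjusted p = 0.175). With the length trend removed the second was called at −0.32 (adjusted p = 0.0433). The liver X receptor Nr1h2, an oxysterol sensor, was 43.5 and 44.4, 41.6 and 41.6, and 37.0 and 39.3 CPM, with changes of −0.08 (95% interval −0.30 to 0.14) and −0.20 (−0.42 to 0.02). Nr1h3, its paralog, was between 0.461 and 1.01 CPM, both extremes being CPN-/- libraries. Nr1i3 (CAR), a xenobiotic sensor of liver, was between 1.01 and 2.00 CPM, but 74.9% of its exon length overlaps Tomm40l on the opposite strand, which had at least 924 counts in every library. Since the strand setting of the counting was not given in the sources used here, reads of such pairs cannot be told apart.

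The COUP-TF receptors Nr2f1, Nr2f2 and Nr2f6, orphans that often act as repressors, were not called either. Nr2f2 was 82.1 and 69.9 CPM in CPN-/-, 71.9 and 79.8 CPM in CPN-/- CRY1 and 101.1 and 90.5 CPM in CPN-/- CRY2, with CPN-/- CRY2 above the others. Its change there was 0.33 (SE 0.12, adjusted p = 0.163), and it lay between 0.231 and 0.456 with single libraries left out. The difference of Nr2f2 between the CRY lines, −0.34 (adjusted p = 0.112), was called with the length trend removed (−0.35, adjusted p = 0.0138). Nr2f6 was 81.0 and 89.4, 95.7 and 95.6, and 83.8 and 84.4 CPM, highest in CPN-/- CRY1, with a change of 0.17 (adjusted p = 0.225) that was called with the length trend removed (0.28, adjusted p = 0.00739). Ocel1, which overlaps 54.4% of the exon length of Nr2f6 on the opposite strand, rose in CPN-/- CRY1 by 0.51 (adjusted p = 0.0343). Nr2f1 moved little, between 8.08 and 8.56 CPM in all libraries, with changes of −0.03 (95% interval −0.31 to 0.25) and −0.01 (−0.30 to 0.27).

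The NR4A genes are immediate early genes that respond to serum and stress. Nr4a1 was 10.0 and 11.3 CPM in CPN-/-, 7.17 and 8.79 CPM in CPN-/- CRY1 and 9.44 and 10.4 CPM in CPN-/- CRY2. Nr4a2 was 6.60 and 5.10, 4.04 and 4.35, and 4.96 and 5.08 CPM. For both genes CPN-/- CRY1 lay below the other lines, with changes of −0.42 (SE 0.15, adjusted p = 0.0865) and −0.49 (SE 0.17, adjusted p = 0.0752) that were not called. Nr4a1 lies on chromosome 15, and with chromosome medians removed its change was −0.04 (adjusted p = 0.865), whereas that of Nr4a2, on chromosome 2, was −0.52 (adjusted p = 0.0688). Without CPN-/- library 1 the change of Nr4a1 was called (adjusted p = 0.00201), and without CPN-/- library 2 that of Nr4a2 was (adjusted p = 0.00128). Nr6a1, a receptor known from germ cells and embryos, was between 6.79 and 8.89 CPM and was not called (0.09 and 0.22, adjusted p = 0.631 and 0.342).

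The genes that the receptors work with were then described from 6 lists, which comprised 82 genes of which 55 were tested. Of these, 16 were called in CPN-/- CRY1 (29.1%, beside 24.3% of all genes), 5 in CPN-/- CRY2 (9.09%, beside 6.66%) and 12 between the CRY lines (21.8%, beside 16.3%). Without any one library of the CRY lines, between 2 and 10 of them were called in a comparison. The lists are described by counts and medians, and the medians of all tested genes lay between −0.008 and −0.005 in the 3 comparisons.

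Coregulators carry the signal of the receptors to chromatin. In CPN-/- CRY1, 2 of 21 tested coregulators were higher and 1 was lower, with a median of 0.41. Nrip1, a corepressor of metabolic receptors, was 9.53 and 3.80 CPM in CPN-/- and 15.2 and 15.8 CPM in CPN-/- CRY1, a change of 1.20 (adjusted p = 0.047). It was 2.03 without CPN-/- library 1 and 0.71 without library 2, and the call was lost without a filter (adjusted p = 0.0697), with at least 10 counts in every library (adjusted p = 0.0542) and in a fit to the 4 libraries (adjusted p = 0.0959). Pprc1, a relative of PGC-1 coactivators, rose by 0.72 (adjusted p = 0.0251), and the demethylase gene Kdm1a fell by 0.33 (adjusted p = 0.0427), a call that was lost with the replicate block (adjusted p = 0.0599), without a filter (adjusted p = 0.0625) and in a fit to the 4 libraries (adjusted p = 0.126). Nrip1 lies on chromosome 16 and Pprc1 on chromosome 19, whose medians were 0.27 and 0.31, and with chromosome medians removed the changes were 0.93 (adjusted p = 0.0927) and 0.40 (adjusted p = 0.15). In CPN-/- CRY2, 0 of 21 were called, with a median of 0.32, and between the CRY lines 1 was called, Tbl1xr1, which was lower in CPN-/- CRY1 (−0.57, adjusted p = 0.0332). Tbl1xr1 lies on chromosome 3, with a median of −0.40 between the CRY lines, and with chromosome medians removed it differed by −0.20 (adjusted p = 0.417). The corepressor gene Ncor1 is an example of a wide spread in CPN-/-: its levels there were 234 and 131 CPM, those of the 4 other libraries lay between 247 and 261 CPM, and its changes of 0.47 and 0.48 were not called (adjusted p = 0.189 and 0.271). Most of the 21 coregulators, though not all, were lower in CPN-/- library 2, the one low for long transcripts, than in library 1. The part of that library in the medians of 0.41 and 0.32 was not tested.

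Retinoid handling was the list with the most genes called between the CRY lines, 5 of 9, where 16.3% of all tested genes were called. In CPN-/- CRY1, 3 of 9 tested genes were lower and 0 were higher, with a median of −1.04. Crabp1, a cytosolic carrier of retinoic acid, was 145 and 201 CPM in CPN-/-, 51.9 and 41.1 CPM in CPN-/- CRY1 and 162 and 182 CPM in CPN-/- CRY2. Its change was −1.89 (SE 0.19, adjusted p = 0.0013) in CPN-/- CRY1 and −0.01 (95% interval −0.44 to 0.43) in CPN-/- CRY2, and the difference between the CRY lines was −1.89 (adjusted p = 0.00147). Fabp5, a carrier known to deliver fatty acids and retinoic acid to PPARD, was 328 and 391, 180 and 165, and 349 and 372 CPM. It fell by 1.06 (SE 0.12, adjusted p = 0.0021) in CPN-/- CRY1 and stood at 0.00 (adjusted p = 0.983) in CPN-/- CRY2, with a difference of −1.07 (adjusted p = 0.00236). Fabp5 lies on chromosome 3, with a median of −0.28 in CPN-/- CRY1, and it shares at least 150 bases at 95% identity with 3 other annotated genes.

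The oxidoreductase gene Dhrs9, which acts on retinol, was 11.9 and 6.29 CPM in CPN-/-, 4.70 and 4.12 CPM in CPN-/- CRY1 and 16.9 and 14.6 CPM in CPN-/- CRY2. It fell by 1.05 (adjusted p = 0.041) in CPN-/- CRY1 and differed between the CRY lines by −1.83 (adjusted p = 0.00771). The fall was −0.51 without CPN-/- library 1 and −1.42 without library 2, and it was not called in a fit to the 4 libraries alone (adjusted p = 0.083). Dhrs3, which returns retinal to retinol and is itself known to be induced by retinoic acid, rose in CPN-/- CRY2 by 1.12 (SE 0.17, adjusted p = 0.011), from 2.89 and 3.65 CPM to 6.72 and 7.41 CPM, and was the 1 gene of 9 called there. Aldh1a1, a retinoic acid synthesizing enzyme, was under 1 CPM in every library and differed between the CRY lines by 1.27 (adjusted p = 0.046). That call was lost with the replicate block (adjusted p = 0.0534), with DESeq2 (adjusted p = 0.139) and with chromosome medians removed (0.81, adjusted p = 0.195). Between the CRY lines 4 of 9 genes were lower in CPN-/- CRY1 and 1 was higher. Of the genes not called against CPN-/-, the retinoic acid hydroxylase gene Cyp26b1 and the carrier gene Crabp2 also had their lowest levels in the CPN-/- CRY1 libraries, with values of −0.44 (adjusted p = 0.138) and −1.04 (adjusted p = 0.0712). Rdh10, which oxidizes retinol to retinal, was between 16.1 and 18.01 CPM in all libraries. The main synthesizing enzyme of embryos, Aldh1a2, and the retinol esterifying enzyme Lrat had 0 counts.

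**Figure D5:**
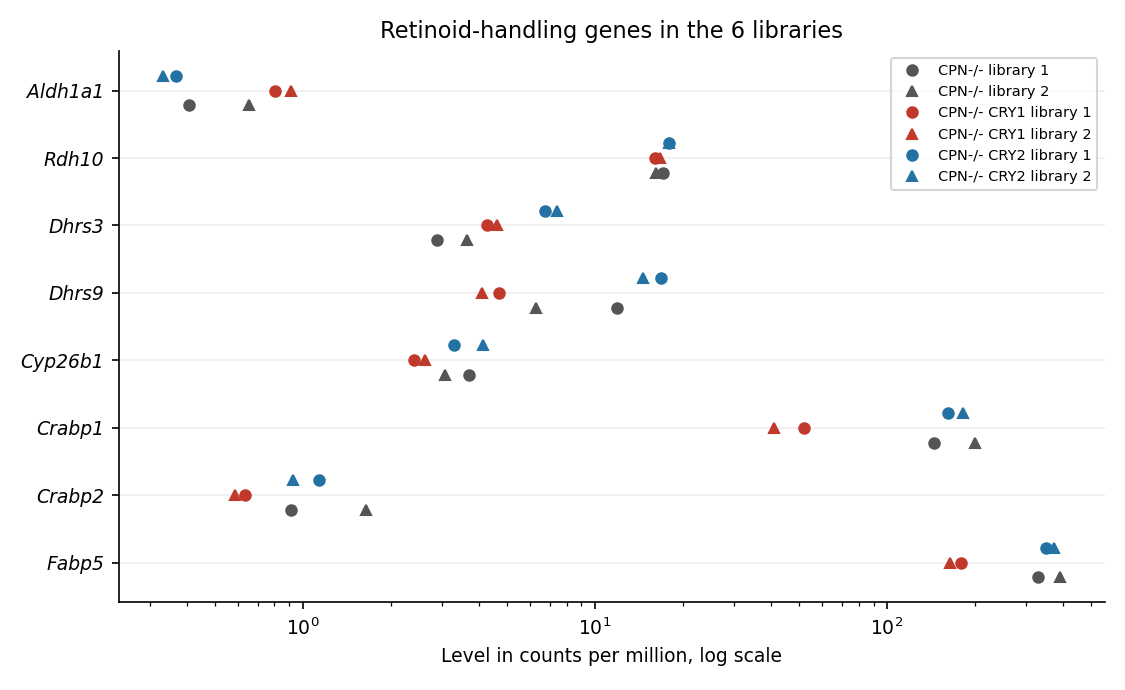
Level of 8 of the 9 tested retinoid-handling genes in CPM on a log axis, 1 point for each library. The red CPN-/- CRY1 points of Crabp1, Fabp5 and Dhrs9 lie left of all others, and the CPN-/- CRY2 points of Dhrs3 lie right of all others.

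Of the 10 tested PPAR targets, 1 was lower and 2 were higher in CPN-/- CRY1, and 1 was lower and 1 higher in CPN-/- CRY2. Fabp4, a fatty acid carrier of adipocytes and macrophages, was 8.71 and 12.1 CPM in CPN-/-, 0.609 and 0.746 CPM in CPN-/- CRY1 and 2.39 and 1.82 CPM in CPN-/- CRY2. It fell by 3.93 (adjusted p = 0.000354) and by 2.30 (adjusted p = 0.00257) on the log2 scale. Pdk4, which inhibits pyruvate dehydrogenase, rose in both lines, by 0.42 (adjusted p = 0.0217) and 0.81 (adjusted p = 0.00469). The rise in CPN-/- CRY1 was not called in a fit to the 4 libraries alone (adjusted p = 0.0753). With single libraries left out, that rise lay between 0.376 and 0.468. The study, by its own threshold with DESeq2, reported higher PDK4 mRNA for CRY2 and no such rise for CRY1. Cpt1a, the entry enzyme of fatty acids into mitochondria, rose by 0.97 (adjusted p = 0.00583) in CPN-/- CRY1 and lies on chromosome 19. Over the list the medians were −0.01 and −0.05, and between the CRY lines 2 genes were lower and 1 was higher in CPN-/- CRY1.

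Of the 8 tested targets of liver X receptors, 1 was lower and 2 were higher in CPN-/- CRY1, with a median of 0.27, and 0 were called in CPN-/- CRY2, with a median of 0.04. Abca1, the cholesterol exporter, was 9.15 and 4.11 CPM in CPN-/-, 1.63 and 1.297 CPM in CPN-/- CRY1 and 1.84 and 2.74 CPM in CPN-/- CRY2. It fell by 2.18 (SE 0.41, adjusted p = 0.0121) in CPN-/- CRY1, and its change of −1.55 in CPN-/- CRY2 was not called (adjusted p = 0.0764) except with DESeq2 (adjusted p = 0.00278), with the length trend removed (adjusted p = 0.00286) or without a CPN-/- library (adjusted p = 0.00294 and 2.38e-10). Scd1, a fatty acid desaturase, rose by 0.89 (adjusted p = 0.00641) in CPN-/- CRY1, and its change in CPN-/- CRY2 was 0.58 (adjusted p = 0.0601). The latter was called with the replicate block (adjusted p = 0.027), DESeq2 (adjusted p = 0.00605), no filter (adjusted p = 0.0204), the length trend removed (adjusted p = 0.00866) and chromosome medians removed (adjusted p = 0.0341). Scd1 lies on chromosome 19, with a median of 0.31 in CPN-/- CRY1. With chromosome medians removed, its rise in that line was 0.57 (adjusted p = 0.0358). It shares a stretch of 623 bases at 95% identity or more with Scd2, so that its level is uncertain. Pltp, a phospholipid transfer protein gene, rose by 0.47 (adjusted p = 0.0242) in CPN-/- CRY1. The rise of Pltp was not called in a fit to the 4 libraries alone (adjusted p = 0.0783). With single libraries left out, it lay between 0.373 and 0.574. Between the CRY lines 1 of 8 was higher in CPN-/- CRY1. Abcg1, a further exporter, had 1 count in all.

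For thyroid hormone, 4 genes were tested, and 2 were lower and 1 was higher in CPN-/- CRY1, while 1 was lower in CPN-/- CRY2. The medians were −1.01 and −1.07 in the CRY lines, and 2 of 4 were higher in CPN-/- CRY1 than in CPN-/- CRY2. Slc16a10, a transporter of thyroid hormone, fell by 2.24 (adjusted p = 0.0147) in CPN-/- CRY1, from 0.943 and 0.768 CPM to 0.166 and 0.195 CPM. It passed the filter of the test only with the CPN-/- libraries, in which it was highest. Hr, a corepressor that thyroid hormone is known to induce, rose by 1.70 (SE 0.18, adjusted p = 0.00146) in CPN-/- CRY1, from 1.82 and 1.84 CPM to 6.56 and 5.32 CPM, and was 1.21 and 1.33 CPM in CPN-/- CRY2. The deiodinase gene Dio1 had 0 counts.

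For vitamin D, 3 genes were tested and 1 was lower in each CRY line, with medians of −0.15 and 0.39, while 0 were called between the CRY lines. Spp1 (osteopontin), which several pathways besides vitamin D are known to induce, was 99.6 and 113 CPM in CPN-/-, 14.1 and 13.7 CPM in CPN-/- CRY1 and 19.4 and 16.8 CPM in CPN-/- CRY2. It fell by 2.94 (SE 0.12, adjusted p = 8.82e-05) and by 2.55 (SE 0.12, adjusted p = 0.000259). Cyp24a1, the enzyme that degrades vitamin D and the most direct known target of its receptor, had 0 counts in every library, including those in which Vdr was higher.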

How the data were processed

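The 6 files held raw read counts for each gene, deposited by the authors with no normalization. Per the study's methods and the submitters' processing notes, poly(A) RNA was sequenced with a stranded kit in paired reads, aligned to mm10 with RNA STAR and counted with featureCounts. The gene annotation, the strand setting and the handling of reads that match several genes were not given in the sources used here. A gene's reads therefore cannot be told apart from those of a gene that overlaps it. Annotated gene pairs with shared sequence were sought with BLAST+ 2.17.0 at 95% identity over at least 150 bases.

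The counts were scaled by TMM, filtered with filterByExpr at its defaults and tested with edgeR 4.0.16 (quasi-likelihood, robust) in R 4.3.3, in 1 fit to all 6 libraries without a block. The p-values were adjusted by the Benjamini-Hochberg method over 14069 genes, and a gene was called at an adjusted p under 0.05. The study used DESeq2, and its version 1.42.0 was run as an alternative. The script was tested on simulated data. Each SE was taken from the log2 change and its F statistic. Intervals of ratios of counts cover counting error only. Per-kilobase levels used the union of GENCODE vM21 exons. Totals of 25957409 to 36106949 counts leave genes of a few counts imprecise.

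Each library had its own RNA preparation, and p-values measure the spread between these libraries only. The members, the rule and the lists were chosen with earlier results of these data known. Every expressed member was named, and from each list at most 4 called genes per comparison with the largest changes. Ncor1, the genes named at or near 0 counts and the printed promoters were chosen after their values were seen. The replicate numbers did not pair the libraries, since same-numbered libraries deviated with correlations of −0.079, 0.14 and −0.03. Other scalings, filters, tests, thresholds, a block, subsets of libraries and offsets for transcript length and chromosome were tried. Exact permutation of 2 against 2 libraries cannot reach the threshold and was not used, and protein sequences were not used here. The values of 2 genes of the lists are not reported here, although the counts and medians of their lists include them.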

Additional observations from a re-analysis of the deposited data

Results flagged for a closer look

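The genes listed here are those whose level differed between CPN-/- CRY1 and CPN-/- CRY2 in the direct test of that difference, with edgeR and an adjusted p under 0.05. Values are log2 differences, positive where CPN-/- CRY1 was higher. Among the receptors these were Esrra at 0.65 and Nr2c1 at −0.46. Among the genes of the other lists, Crabp1 differed by −1.89, Dhrs9 by −1.83, Fabp4 by −1.64, Fabp5 by −1.07, Dhrs3 by −0.66, Tbl1xr1 by −0.57 and Pdk4 by −0.38. The genes higher in CPN-/- CRY1 were Hr at 2.22, Aldh1a1 at 1.27, Cpt1a at 0.94, Klf9 at 0.69 and Pltp at 0.48. Of the genes used to check the lines, Cry1 differed by 1.84, Cry2 by −2.77 and Nr1d1 by −0.41. Esrra, Cpt1a, Aldh1a1 and Klf9 lie on chromosome 19, whose median between the CRY lines was 0.46, and Fabp4, Fabp5 and Tbl1xr1 on chromosome 3, whose median was −0.40. With chromosome medians removed, the calls were lost for Esrra (0.19, adjusted p = 0.324), Nr2c1 (−0.31, adjusted p = 0.118), Tbl1xr1 (−0.20, adjusted p = 0.417), Aldh1a1 (0.81, adjusted p = 0.195), Cpt1a (0.48, adjusted p = 0.109), Klf9 (0.23, adjusted p = 0.505), Pdk4 (−0.26, adjusted p = 0.152) and Fabp4 (−1.26, adjusted p = 0.0505). Fabp5 was still called (−0.69, adjusted p = 0.0186). With the replicate block the calls of Pdk4 (adjusted p = 0.0597) and Aldh1a1 (adjusted p = 0.0534) were lost.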

How the results depend on the processing

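No called value changed direction under any alternative. Of 1088 alternative values of single members, 984 kept their side of the threshold, 41 lost it and 63 gained it. The number of expressed members was 23 at a sum of 30 counts, 19 at 120 and 23 by the filter of the test. Counts are given in the order CRY1 against CPN-/-, then CRY2 against CPN-/-, then the 2 CRY lines, where 3423, 937 and 2292 of all genes and 3, 2 and 2 members were called. Other scalings left the member counts at 3, 2 and 2. With DESeq2 they were 2, 2 and 3, without a filter 5, 2 and 3, and with at least 10 counts in every library 1, 2 and 2, where 583 of all genes were called in CRY2 against CPN-/-. In fits to the 4 libraries of a comparison 2, 0 and 10 members and 1798, 473 and 6838 of all genes were called. With the length trend removed they were 6, 3 and 6, and 5361, 1996 and 4312. With chromosome medians removed they were 3, 1 and 1, and 1472 of all genes between the CRY lines. At an adjusted p under 0.01 they were 0, 0 and 0, and 1184, 363 and 854. At an adjusted p under 0.01 the genes of the other lists numbered 8 and 5 in CRY1 against CPN-/- and between the CRY lines, in fits to 4 libraries 10 and 29, with the length trend removed 10 in CRY2 against CPN-/- and with chromosome medians removed 7 between the CRY lines. Leaving out each library in turn gave 663 to 8980, 199 to 8046 and 475 to 6897 of all genes, 0 to 9, 0 to 9 and 0 to 11 members and 5 to 42, 2 to 37 and 2 to 29 genes of the other lists. The high ends came from leaving out a CPN-/- library and the low ends from leaving out a library of a CRY line, where the lone library is assumed to vary like the others. With the replicate block 4, 2 and 3 members and 3458, 977 and 2188 of all genes were called. Libraries of the same number did not deviate together, so the block is not a pairing from the design. Thrb and Nr1h4 rest on few counts, and depth limits what can be said of them.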
